A study of Mus musculus with 24 samples.

Results

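Oxidative phosphorylation genes were followed in endothelial and non-endothelial cells of mouse embryonic liver, with the subunits encoded by mitochondrial DNA compared with those encoded in the nucleus. Members were chosen by name: the protein-coding genes of the mitochondrial genome (mt-Nd, mt-Co, mt-Cytb and mt-Atp) and the nuclear Nduf A, B, C, S and V, Sdh A to D, Uqcr, Cox4 to Cox8 and Atp5 genes, without names ending in -ps, that reached 1 transcript per 1000000 (TPM) in at least 3 of 24 libraries. This gave 93 of the 25361 genes in the table, of which 13 were mitochondrial-encoded and 80 nuclear-encoded. Another 5 names met the pattern but not the minimum. They were Cox8b, Cox8c and Cox7b2, an entry named Atp5o_1, and Cox6a2, the form of subunit 6a of muscle and heart, which reached 1 TPM in 2 libraries. By complex, the nuclear-encoded members divided into 37 of complex I, 4 of complex II, 8 of complex III, 14 of complex IV and 17 of complex V. The mitochondrial-encoded members held 7 subunits of complex I, 1 of complex III, 3 of complex IV and 2 of complex V. The table uses older names for the subunits of complex V, and Ndufa4, which the rule places under complex I by its name, is now known as a subunit of complex IV.

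Oxidative phosphorylation passes electrons from NADH through complex I (NADH dehydrogenase) or from succinate through complex II (succinate dehydrogenase) to complex III (cytochrome bc1) and complex IV (cytochrome c oxidase), and complex V (ATP synthase) uses the resulting proton gradient to make ATP. Complexes I, III, IV and V are mosaics of subunits from both genomes, whereas complex II is wholly nuclear. The mitochondrial genes are copied as long transcripts from both strands of a small circular genome present in many copies per cell, and each nuclear subunit has a promoter of its own and is imported after translation in the cytosol. Blood forms mainly in the liver at this age of the embryo, and hepatoblasts, blood cells and sinusoidal endothelium share the organ.

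RNA was sequenced from livers at embryonic day (E) 12.5, separated into liver sinusoidal endothelial cells (LSECs), which are the cells retained on CD146 beads, and the remaining non-EC cells. In both fractions there were 4 genotypes with 3 libraries each, every library coming from 1 embryo: Cre-negative littermate controls and 3 mutants that all carry VE-cadherin-Cre. Chd4-ECko embryos are homozygous for the floxed Chd4 allele (fl/fl) and also heterozygous for the floxed Brg1 allele (fl/+), Brg1-ECko embryos are fl/fl for Brg1 and fl/+ for Chd4, and in Brg1/Chd4-ECdko embryos both genes are fl/fl. The controls of the study were not always fl/fl for both genes, but had a floxed allele of Brg1 and of Chd4. BRG1 (gene Smarca4) and CHD4 are the ATPases of the SWI/SNF and NuRD chromatin-remodeling complexes. VE-cadherin-Cre is active in endothelium and also in some blood cells, embryos of both sexes on a mixed background were used, and all groups shared the same dissociation with inhibitors of transcription and translation.

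The 12 mitochondrial-encoded members other than mt-Nd6 lie on the plus strand of chromosome M, which is 16299 bases long in GRCm39, and mt-Nd6 lies on the minus strand. Neighbouring genes overlap in places, so that reads from the shared bases cannot be given to a single gene, and the sources used here do not state whether counting used the strand. The sequences below, from GRCm39 and 5′ to 3′ on the plus strand, show the 3 overlaps of more than 1 base, with the shared bases in capitals; mt-Atp6 and mt-Co3 share only the base at position 8607.
mt-Atp8 and mt-Atp6, chrM:7907-7989, 43 shared bases from 7927 to 7969: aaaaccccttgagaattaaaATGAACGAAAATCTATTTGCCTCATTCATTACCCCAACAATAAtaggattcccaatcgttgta
mt-Nd4l and mt-Nd4, chrM:10147-10193, 7 shared bases from 10167 to 10173: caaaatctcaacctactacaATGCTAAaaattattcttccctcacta
mt-Nd5 and mt-Nd6 on opposite strands, chrM:13532-13585, 14 shared bases from 13552 to 13565: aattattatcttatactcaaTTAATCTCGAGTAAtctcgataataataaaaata
The values of mt-Atp8, mt-Nd4l and mt-Nd6, which are short or lie opposite another gene, are therefore less certain than those of mt-Co1, mt-Cytb and mt-Atp6.

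Each library sums to 1000000 TPM. The paper gives a common read number for the sequencing, but the depth that each library reached is unknown and no counting interval can be given. Genes at 1 TPM or more numbered 12746 to 13219 per library of LSECs and 11450 to 11973 per library of non-EC cells. The summed TPM of 9 endothelial markers was 869 to 1813 in LSECs against 26.3 to 59.9 in non-EC cells, and 5 mesenchymal markers were also more abundant in LSECs, with sums of 433.0 to 670.4 against 11.7 to 41.4. Hepatoblast, erythroid and megakaryocyte markers went the other way. Hepatoblast markers summed to 3489.5 to 28313 TPM in LSECs and 17389 to 37829 TPM in non-EC cells, erythroid markers to 394 to 2664 and 1833 to 12488 TPM, and megakaryocyte markers to 151 to 523 and 639 to 1654 TPM. Between control fractions 8 of 9, 8 of 12 (with 1 higher) and 5 of 5 of these markers were called lower in LSECs. The 6 genes of the dissociation response, induced when tissue is taken apart, summed to 86.9 to 144 TPM in LSECs and 51.8 to 78.4 TPM in non-EC cells without overlap, and 8 macrophage and leukocyte markers to 400.5 to 904 and 209 to 426 TPM. Between control fractions 4 of 6 (with 1 lower) and 3 of 8 (with 2 lower) were called higher in LSECs, beside 31.3% of all genes higher and 35.8% lower. The part of these lists in the differences between fractions was not tested. The library of replicate 1 of Brg1-ECko LSECs stood apart, with a summed hepatoblast-marker level of 28313 TPM against at most 8099 in the other 11 LSEC libraries. Gene-level TPM did not check the deletions, and values by exon were not used here: in control LSECs Chd4 was at 284.5, 255.1 and 246.2 TPM, and in Chd4-ECko LSECs it was at 222.8, 168.5 and 252.3 TPM. For Smarca4 the values were 160.6, 143.9 and 134.1 TPM in control LSECs and 157.0, 110.6 and 127.3 TPM in Brg1-ECko LSECs, again with overlapping groups. In Brg1/Chd4-ECdko LSECs Chd4 was at 241.8, 249.8 and 255.6 TPM and Smarca4 at 130.5, 117.3 and 150.6 TPM, both overlapping the controls. By qRT-PCR, the paper found both transcripts lower in LYVE1-selected LSECs of the matching mutants at the same stage.

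Mitochondrial-encoded transcripts took a much larger share of the RNA of LSECs than of non-EC cells in every genotype, while the nuclear-encoded subunits took overlapping shares of nuclear transcripts in the fractions. In control LSECs the 13 mitochondrial genes made up 24.5, 20.6 and 24.6% of all TPM, and in control non-EC cells 7.69, 6.17 and 7.51%. Chd4-ECko gave 31.5, 20.4 and 14.1% in LSECs and 7.37, 3.43 and 2.33% in non-EC cells. Brg1-ECko gave 17.1, 18.2 and 25.7% in LSECs and 5.24, 3.04 and 5.51% in non-EC cells. The lowest LSEC library therefore lay above the highest non-EC library, although the spread among LSEC libraries of a single mutant genotype was wide. Brg1/Chd4-ECdko gave 27.4, 14.7 and 13.9% in LSECs and 6.65, 6.43 and 6.62% in non-EC cells. Over genotypes the share was 21.1% ± 5.72 (SD, n = 12) in LSECs and 5.66% ± 1.82 (SD, n = 12) in non-EC cells, and leaving out replicate 1 of Brg1-ECko LSECs changed the LSEC mean to 21.4%. In bulk fractions such as these, a different mixture of cell types and a different amount of RNA per cell cannot be told apart.

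The 80 nuclear-encoded members summed to 1.60 to 2.37% of all TPM in LSECs and 2.32 to 2.904% in non-EC cells. Because TPM is a share of a fixed total, a large mitochondrial share leaves less room for every nuclear gene, and the nuclear-encoded members were therefore also expressed as a share of the TPM of nuclear genes alone. On that scale they were at 2.52, 2.85 and 2.75% in control LSECs and 2.51, 2.76 and 2.53% in control non-EC cells. The ranges over 12 libraries, 2.27 to 2.98% in LSECs and 2.51 to 2.97% in non-EC cells, overlapped, although 5 LSEC libraries, all of mutants, lay below every non-EC library. In Brg1-ECko the share was 2.33, 2.78 and 2.42% in LSECs and 2.69, 2.97 and 2.74% in non-EC cells, lower in LSECs in all 3 pairs.

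**Figure D1:**
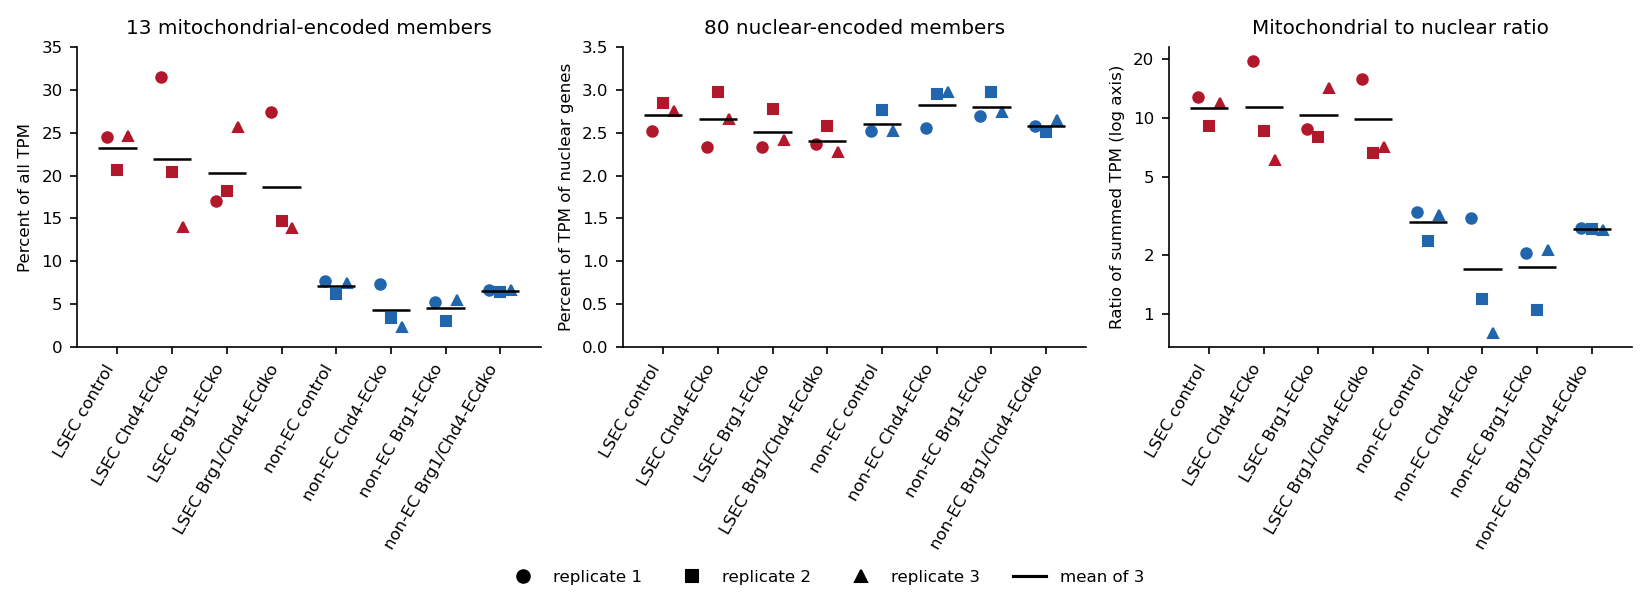
Mitochondrial-encoded members as a percent of all TPM (left), nuclear-encoded members as a percent of nuclear-gene TPM (middle) and the ratio of the mitochondrial to the nuclear sum on a log axis (right), for LSECs (red) and non-EC cells (blue) of 4 genotypes; circles, squares and triangles are replicates 1, 2 and 3 and the bar is the mean of 3. The fractions are apart in the left and right panels, where LSECs span 13.9 to 31.5% and ratios of 6.16 to 19.6, and overlap in the middle panel.

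The ratio of the mitochondrial-encoded to the nuclear-encoded sum, which does not depend on the total of the library, was 10.8 ± 4.199 (SD, n = 12) in LSECs and 2.29 ± 0.863 (SD, n = 12) in non-EC cells. The LSEC and non-EC libraries with the same genotype and number also varied together across genes, and the fold between the members of each such pair was 3.88, 3.84 and 3.70 in controls. These 3 folds were close to each other, whereas the mutant pairs were more scattered. Chd4-ECko pairs gave 6.30, 7.16 and 7.69, Brg1-ECko pairs 4.30, 7.60 and 6.74, and Brg1/Chd4-ECdko pairs 5.76, 2.43 and 2.65. All 12 pairs had the higher ratio in LSECs, with a mean fold of 5.17 ± 1.92 (SD, n = 12). Each complex with subunits from both genomes showed the same order: the mean TPM of mitochondrial subunits over that of nuclear subunits was 34.4 to 107 in LSECs and 4.45 to 20.2 in non-EC cells for complex I, 31.3 to 109 and 2.87 to 17.1 for complex III, 61.1 to 193 and 8.53 to 32.6 for complex IV, and 35.6 to 115 and 4.85 to 19.5 for complex V.

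In control LSECs against control non-EC cells, all 13 mitochondrial-encoded members rose, with a median log2 fold change of 1.73 on the log2(TPM + 1) scale and no overlap between the 3 LSEC and the 3 non-EC libraries of any of them, a separation upward that 34.9% of genes showed. A gene was called at a Benjamini-Hochberg adjusted p below 0.05 from limma, and 67.1% of the 13775 genes tested were called in this contrast, 31.3% higher and 35.8% lower, so that a call by itself separates these genes little from the rest. All 13 also passed a log2 fold change of 1 in size, as did 32.7% of genes and, among the nuclear-encoded members, 2 (Cox6b2 and Sdhd, both lower). mt-Co1, the catalytic core of cytochrome c oxidase, was at 43809, 36353 and 46428 TPM in control LSECs and at 14325, 11973 and 14657 TPM in control non-EC cells (log2 fold change 1.63, SE 0.37, adjusted p = 0.000568). mt-Atp6, part of the proton channel of ATP synthase and the most abundant of the 13, was at 51635, 45512 and 52448 TPM against 14432, 12972 and 15308 TPM (1.81, SE 0.35, adjusted p = 0.000108). For both genes the lowest control LSEC library held more than any control non-EC library. mt-Cytb, the only mitochondrial-encoded subunit of complex III, was at 22184, 17349.9 and 20443 TPM against 6653, 4965 and 6272 TPM (1.75, SE 0.43, adjusted p = 0.00122). mt-Nd1, a membrane subunit of complex I next to the quinone site, was at 25286, 20453 and 23923 TPM against 8741, 6727 and 7299.7 TPM (1.62, SE 0.35, adjusted p = 0.000356). mt-Co3 had the highest fold change among the 13 (1.82, SE 0.27, adjusted p = 5.13e-06) and mt-Nd6, the only gene of the opposite strand, the lowest (1.42, SE 0.40, adjusted p = 0.00361). mt-Nd6 was at 5568, 4158 and 4495 TPM in control LSECs and 2062, 1430.4 and 1835 TPM in control non-EC cells. If counting ignored the strand, these values would also hold reads from plus-strand RNA, so the direction of minus-strand RNA is not settled.

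Within the mitochondrial sum the proportions of single genes were close in the fractions. mt-Atp6 took 21.5% in LSECs and 20.7% in non-EC cells, mt-Co1 18.3 and 19.1%, mt-Co2 10.7 and 10.5%, mt-Nd1 9.82 and 10.5%, mt-Cytb 8.70 and 7.51% and mt-Nd3 0.91 and 1.13%. After quantile normalization, which forces the same distribution on every library, 9 of the 13 were still called higher. mt-Nd1 and mt-Co2 were not, and mt-Co1 and mt-Atp6, at the top of every library, have no difference there by construction.

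Among the 80 nuclear-encoded members 25 fell, 1 rose and 54 were not called in control LSECs against control non-EC cells, with a median log2 fold change of -0.16 against -0.09 over all genes tested. The calls depended on the scaling, and more members were called when same-numbered libraries were paired. When TPM was rescaled without the mitochondrial genes, the median of all genes moved to 0.15 and the nuclear-encoded members split into 27 higher and 21 lower, with a median of 0.11, against 39.2% of all genes higher and 25.7% lower. After quantile normalization, with a median of -0.16 over all genes, 23 were higher and 15 lower, against 28.7 and 40.2% of all genes. The sign of the fold change turned for 24 of the 80 under either rescaling, and 27 were above 0 as deposited against 51 after each. No member was called in opposite directions by any of these scalings. The 15 lower under all 3 were Cox5b, Ndufs1, Cox6b2, Uqcrc2, Sdhd, Cox5a, Uqcrc1, Ndufs7, Atp5g1, Uqcrfs1, Sdha, Ndufb10, Atp5a1, Ndufv1 and Cox8a. Atp5pb, Cox6a1, Atp5d and Uqcrq were called lower in the deposited TPM alone (-0.31, -0.52, -0.36 and -0.45). A further 23 were higher under both rescalings and not called in the deposited TPM, among them Ndufa4, Sdhb, Cox7a2l, Uqcrh, Atp5e and Ndufs4. The coding sequences of the 15 lower members had a median of 747 bases (312 to 2226), those of the 23 higher members 384 bases (228 to 1476) and those of the remaining 42 members 436.5 bases (171 to 1860). Coding length thus moved with the direction, and its part in the result was not tested.

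**Figure D2:**
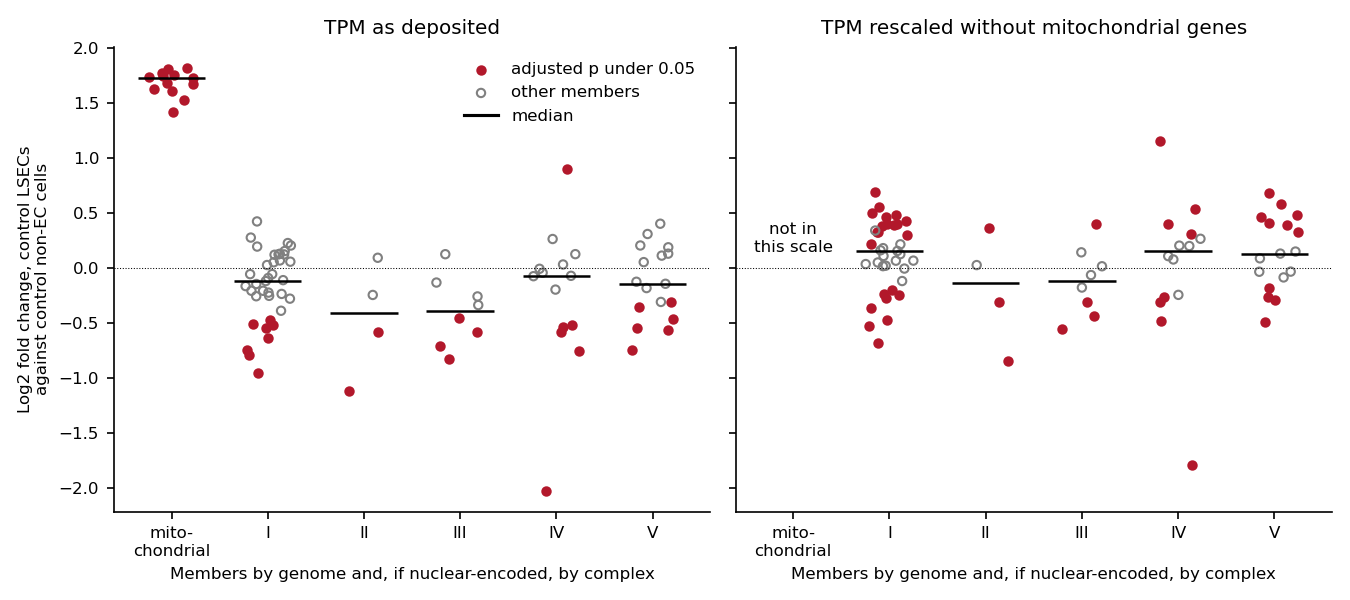
Log2 fold change of each member in control LSECs against control non-EC cells (n = 3 each), grouped by genome and complex, for TPM as deposited (left) and for TPM rescaled without mitochondrial genes (right); filled red points have an adjusted p below 0.05, open grey points do not, and lines are medians. Mitochondrial-encoded members lie between 1.42 and 1.82, and the nuclear-encoded members lie around zero, with 25 lower and 1 higher in the left panel and 21 lower and 27 higher in the right.

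By complex, the counts stand against 35.8% of all genes lower and 31.3% higher as deposited. In complex I, 8 of 37 nuclear-encoded members fell and none rose (14 higher and 8 lower without mitochondrial genes in the total). The 7 core subunits, which carry the flavin, iron-sulfur clusters and quinone site, held 4 of the 8 that fell and had a median of -0.51, which was -0.24 after the rescaling. Ndufs1, which carries 3 of the iron-sulfur clusters, was at 87.3, 81.7 and 75.1 TPM in control LSECs and 161, 157 and 155 TPM in control non-EC cells (log2 fold change -0.95, SE 0.15, adjusted p = 1.02e-05). Ndufs7, the core subunit with the last cluster before quinone, was at 80.1, 84.1 and 79.3 TPM against 145, 146 and 133 TPM (-0.80, SE 0.16, adjusted p = 0.000185). Neither gene's groups overlapped. Of 13 accessory A subunits 2 fell, with a median of -0.06 that became 0.22 after the rescaling, and of 11 accessory B subunits only Ndufb10 fell (-0.75, SE 0.12, adjusted p = 2.08e-05).

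Complex II, the only complex without a mitochondrial-encoded subunit, was split. Sdhd, the small membrane anchor, was at 154, 178 and 173 TPM in control LSECs and 347, 379.9 and 375 TPM in control non-EC cells (-1.12, SE 0.15, adjusted p = 1.09e-06). Over genotypes it ranged from 154 to 259 TPM in LSECs and from 344 to 491 TPM in non-EC cells, without overlap. Sdha, the flavoprotein that oxidises succinate, also fell, with 248, 246 and 225 TPM against 362, 344 and 372 TPM (-0.58, SE 0.10, adjusted p = 5.4e-05). Sdhb, the iron-sulfur subunit between them, was at 157, 199 and 175 TPM against 151, 187 and 159 TPM (0.09, SE 0.18, adjusted p = 0.658), and these groups overlapped. Sdhc, the other anchor, was at 71.1, 75.4 and 69.8 TPM against 84.9, 89.7 and 82.4 TPM (-0.25, SE 0.11, adjusted p = 0.0549), and passed the threshold only when libraries of the same embryo number were paired (adjusted p = 0.0237).

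In complex III, 4 of 8 nuclear-encoded members fell, with a median of -0.39, and after the rescaling 3 were lower and 1 higher. Uqcrfs1, the Rieske iron-sulfur protein, was at 142, 153 and 140.3 TPM in control LSECs and 253, 281 and 240.4 TPM in control non-EC cells (-0.82, SE 0.12, adjusted p = 4.44e-06). Uqcrc1, a large core protein, was at 237, 283 and 255 TPM against 372, 400.3 and 387 TPM (-0.58, SE 0.14, adjusted p = 0.00129), and its partner Uqcrc2 fell by 0.71 on the log2 scale (SE 0.13, adjusted p = 6.92e-05). Uqcrb, by contrast, was at 945, 1008 and 925 TPM against 979, 1118 and 1062 TPM (-0.13, SE 0.16, adjusted p = 0.466), with a sign that turned under both rescalings.

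In complex V, 6 of 17 nuclear-encoded members fell (7 higher and 4 lower after the rescaling). Atp5b, the catalytic beta subunit and one of the most abundant nuclear-encoded members, was at 1422, 1604 and 1330.1 TPM in control LSECs and 2121, 2198 and 2112 TPM in control non-EC cells (-0.57, SE 0.12, adjusted p = 0.000433), a call lost after quantile normalization (adjusted p = 0.0786). Atp5g1, Atp5g2 and Atp5g3 encode the same mature subunit c of the rotor ring from separate genes. Atp5g1 was at 11.4, 12.0 and 10.3 TPM against 19.2, 20.9 and 18.5 TPM (-0.75, SE 0.13, adjusted p = 3.22e-05) and Atp5g3 at 366, 403 and 405 TPM against 569, 523 and 523 TPM (-0.46, SE 0.11, adjusted p = 0.000777). Atp5g2 was at 49.5, 58.4 and 48.8 TPM against 56.6, 57.7 and 63.7 TPM (-0.18, SE 0.15, adjusted p = 0.274), so that Atp5g3 was the main source in both fractions.

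Complex IV held the member with the largest difference among the nuclear-encoded ones and the only one called higher in the fit of all groups to the deposited TPM (6 were with the compared groups alone, where 73.2% of all genes were called), and both are alternative isoforms. Cox6b2, the isoform of subunit 6b known from testis, was at 7.40, 7.65 and 4.89 TPM in control LSECs and 27.8, 31.4 and 30.1 TPM in control non-EC cells (-2.03, SE 0.22, adjusted p = 7.67e-08). Its common isoform Cox6b1 was at 155, 201 and 174 TPM against 164, 185 and 168 TPM (0.03, SE 0.16, adjusted p = 0.870). The non-EC libraries of every genotype, at 16.5 to 33.7 TPM, lay above the LSEC libraries, at 4.89 to 14.8 TPM. Cox4i2, the isoform of subunit 4 known from lung and hypoxia, was at 7.06, 6.31 and 9.52 TPM against 4.13, 1.86 and 5.49 TPM (0.90, SE 0.33, adjusted p = 0.0201). This call was lost without replicate 3 of control LSECs (adjusted p = 0.085), without replicate 2 of control non-EC cells (adjusted p = 0.149) and after quantile normalization (adjusted p = 0.225). The common isoform Cox4i1 was at 609, 759 and 665 TPM against 673, 793 and 668 TPM (-0.07, SE 0.18, adjusted p = 0.741). Cox5a, which binds subunit 4, fell from 184, 183 and 163 TPM in control non-EC cells to 102, 107 and 103 TPM in control LSECs (-0.75, SE 0.12, adjusted p = 1.07e-05). Among the subunit 7a genes, Cox7a1, the muscle isoform, was near 1 TPM in both fractions (control means 1.22 and 1.25 TPM), Cox7a2 was at 115 and 116 TPM, and Cox7a2l, which helps to join complexes III and IV, was at 208, 233 and 229.9 TPM against 179, 185 and 194 TPM (0.26, SE 0.15, adjusted p = 0.115). Cox7a2l was called higher with the pairing of libraries (adjusted p = 0.0161) and under both rescalings.

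**Figure D3:**
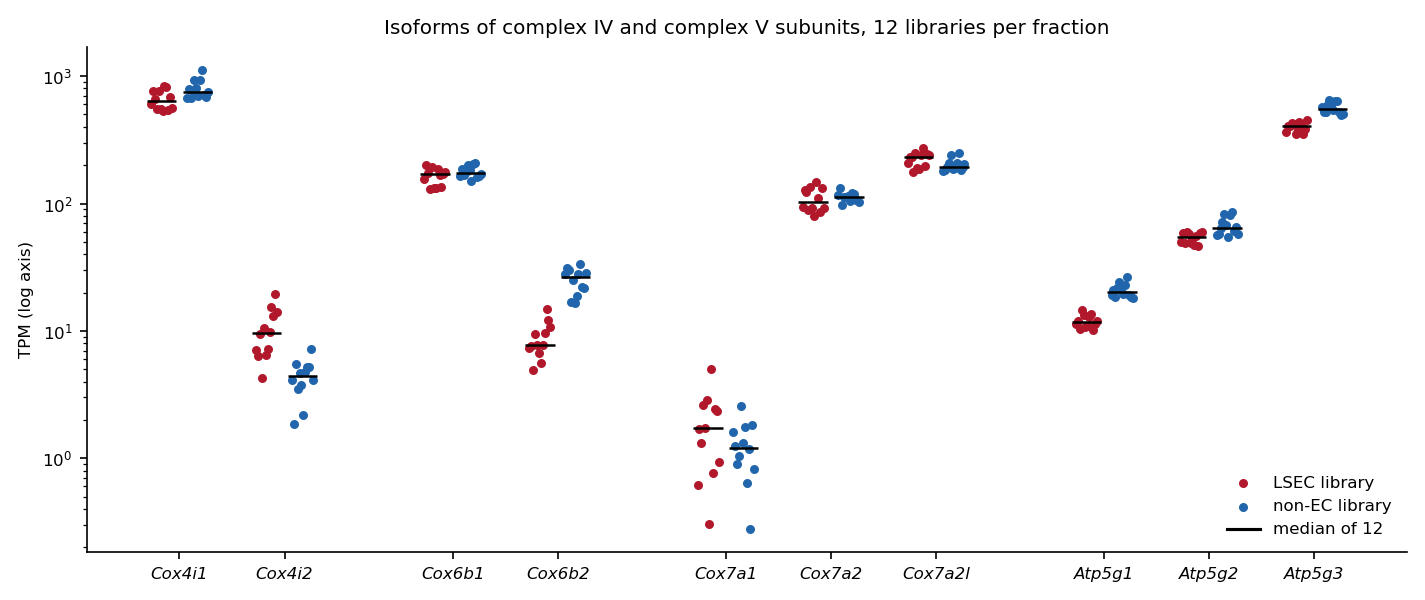
TPM on a log axis of the isoforms of complex IV subunits 4, 6b and 7a and of the 3 subunit c genes of complex V, in the 12 LSEC (red) and 12 non-EC (blue) libraries, with a line at the median. Cox6b2 is the gene whose fractions lie farthest apart, with medians of 7.77 TPM in LSECs and 26.6 TPM in non-EC cells, and the common isoforms Cox4i1 and Cox6b1 overlap.

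The same fraction contrast in the mutants gave the same picture for the mitochondrial-encoded members, of which all 13 rose without overlap in each genotype, against 32, 36.5 and 36.6% of all genes that separated upward. Their median log2 fold change was 2.405 in Chd4-ECko, 2.15 for Brg1-ECko and 1.43 in the double mutant. Nuclear-encoded members split in Chd4-ECko into 1 higher and 38 lower as deposited (35.9 and 32.5% of all genes, 68.4% in all) and into 13 higher and 27 lower after the rescaling (46.1 and 22.4% of all genes). For Brg1-ECko the split was 0 higher and 39 lower (32.9 and 30% of all genes, 62.9% in all) and then 2 higher and 26 lower (42.2 and 19.8%), and for the double mutant 1 higher and 30 lower (33.6 and 29.1%, 62.7% in all) and then 4 higher and 20 lower (40.1 and 21.4%).

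The promoters of nuclear-encoded members were searched for 3 motifs on both strands, in windows from 250 bases before to 50 after the start of each gene in the RefSeq promoter table of GRCm38.p6, in which 66 of the 80 were matched. A gene was counted if any of its windows held the motif. The core motif of NRF1, a known activator of respiratory genes, was spelled GCATGCGC. It was found in 15.2% of matched members and 3.05% of all 27025 genes with a promoter window, expressed here or not. The YY1 motif AAGATGGC was found in 15.2 and 3.19%, and the ETS motif CCGGAAGT in 7.58 and 4.31%. The NRF1 core can overlap its own reverse complement. Among the 21 matched members that fell in LSECs, NRF1, ETS and YY1 were found for 2, 2 and 4 genes, and among the other 45 for 8, 3 and 6. A match describes letters only. The promoters of Uqcrc1 and Ndufs7, both lower under all 3 scalings, are shown because each holds a motif near its start, in capitals (NRF1 on both strands in Uqcrc1, YY1 in Ndufs7), on the plus strand and 5′ to 3′.
Uqcrc1, chr9:108936398-108936697: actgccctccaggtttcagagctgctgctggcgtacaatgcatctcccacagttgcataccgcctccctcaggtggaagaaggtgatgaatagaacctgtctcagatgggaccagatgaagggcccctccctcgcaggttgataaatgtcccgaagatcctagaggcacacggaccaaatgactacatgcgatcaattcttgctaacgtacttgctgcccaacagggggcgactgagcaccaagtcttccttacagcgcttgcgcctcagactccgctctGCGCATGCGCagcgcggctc
Ndufs7, chr10:80249199-80249498: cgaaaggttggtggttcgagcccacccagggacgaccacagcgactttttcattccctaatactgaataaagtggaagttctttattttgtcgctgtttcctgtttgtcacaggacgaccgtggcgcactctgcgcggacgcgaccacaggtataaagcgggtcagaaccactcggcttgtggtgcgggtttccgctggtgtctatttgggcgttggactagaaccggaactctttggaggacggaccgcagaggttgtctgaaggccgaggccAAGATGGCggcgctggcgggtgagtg

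Genes that make, express and assemble the complexes were mostly lower in control LSECs than in control non-EC cells, opposite to the mitochondrial-encoded subunits. The counts below stand against 35.8% of all genes lower and 31.3% higher as deposited, and 25.7% lower and 39.2% higher after the rescaling without mitochondrial genes. Of 35 genes for transcription, processing and copy number of mitochondrial DNA, 27 fell and 1 rose, with a median of -0.77 (24 and 1 after the rescaling). Polrmt, the mitochondrial RNA polymerase, was at 12.1 TPM in LSECs and 23.7 TPM in non-EC cells (-0.92, adjusted p = 2.47e-06), and Tfam, which packages and activates mitochondrial DNA, at 51.2 and 82.2 TPM (-0.67, adjusted p = 0.00153). Twnk, the replicative helicase, was at 19.5 and 61.9 TPM (-1.62, adjusted p = 4.49e-08), and Lrpprc, which stabilises mitochondrial mRNAs, at 62.7 and 158 TPM (-1.32, adjusted p = 4.8e-05). The gene that rose was Hsd17b10, a subunit of the mitochondrial RNase P, at 125 and 89.7 TPM (0.47, adjusted p = 0.00801). Of 10 transcriptional regulators of mitochondrial biogenesis 7 fell, with a median of -0.66, among them Nrf1 at 22.0 and 36.5 TPM (-0.71, adjusted p = 2.84e-05), Pprc1 at 21.9 and 62.5 TPM (-1.48, adjusted p = 2.81e-07) and Myc at 26.3 and 109.8 TPM (-2.02, adjusted p = 1.79e-10). After the rescaling 5 of the 10 were lower and 1 higher.

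Of 55 assembly factors 36 fell and 1 rose, the latter being Tmem126b, which assembles complex I (36.7 and 25.3 TPM, 0.52, adjusted p = 0.0132), with a median of -0.52. Of 14 genes of the tricarboxylic acid cycle 12 fell, including Cs, which encodes citrate synthase (118 and 249 TPM, -1.08, adjusted p = 1e-07), and only Idh2 rose (323 and 211 TPM, 0.62, adjusted p = 2.35e-05). The mitochondrial ribosome had 63 of 78 genes lower and 1 higher, with a median of -0.71. After the rescaling 25 assembly factors, 9 cycle genes and 51 mitochondrial ribosomal genes were called lower, and 6, 1 and 4 higher. The cytosolic ribosome, taken as a reference of short abundant nuclear transcripts, had 21 of 77 genes lower and 0 higher as deposited, 40 lower with the pairing of libraries, and 6 lower and 3 higher after the rescaling. Cycs, the electron carrier cytochrome c that the name rule leaves out, was at 65.4 and 91.7 TPM (-0.48, adjusted p = 0.00436).

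**Figure D4:**
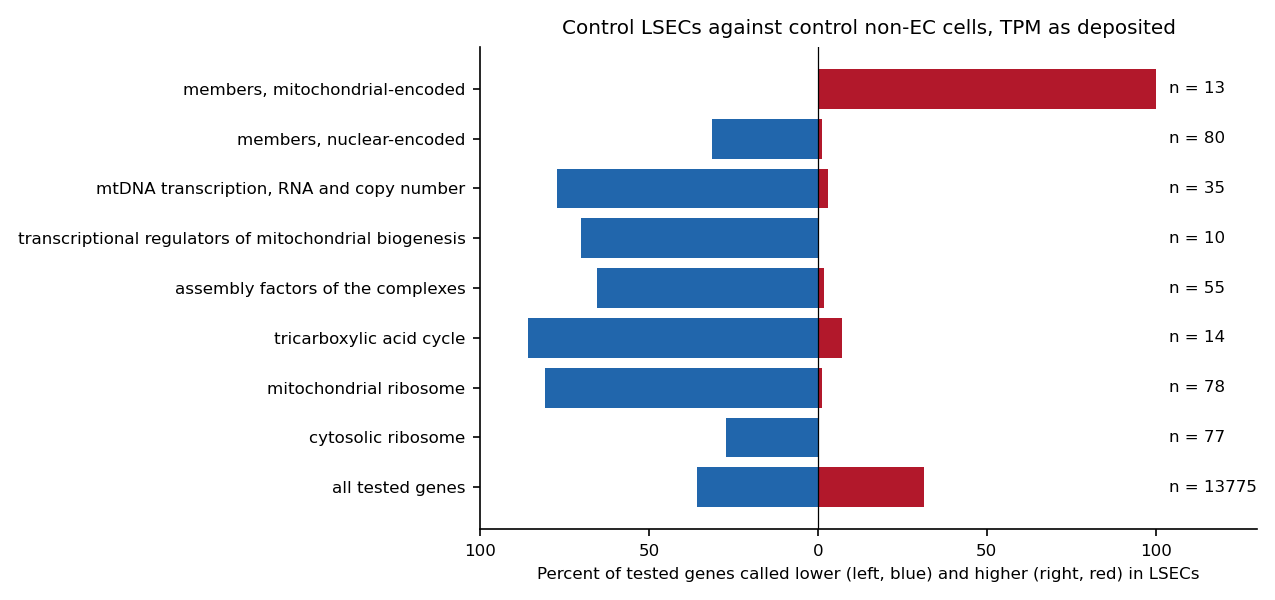
Percent of tested genes called lower (blue, to the left) and higher (red, to the right) in control LSECs against control non-EC cells, TPM as deposited, for the 2 groups of members, 6 related lists and all 13775 genes, with the number tested beside each name. Mitochondrial-encoded members are all on the higher side, and the lists for expression, assembly and translation are mostly on the lower side; for nuclear-encoded subunits and the cytosolic ribosome the split depended on the scaling.

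In LSECs, none of the 93 members passed the adjusted p-value in any mutant in the fit of all 12 libraries, while a fit to the compared groups alone called 2 in the double mutant. In the fit of all 12, limma called 0 members for Chd4-ECko, where 0.707% of 13444 genes were called, 0 for Brg1-ECko (0.0223%), 0 for the double mutant (0.87%) and 0 for the double mutant against Chd4-ECko (0.0372%). At an unadjusted p below 0.05 there were 0, 0, 4 and 1 members, against 6.49, 9.68, 12.1 and 10.4% of all genes. The mitochondrial-encoded members had medians of -0.15, -0.18, -0.35 and -0.18, with smallest adjusted p-values of 1, 0.724, 0.457 and 0.548, and the lowest median of the nuclear-encoded members was -0.07. Among LSEC libraries, mt-Co1 was at 62246, 36013 and 26048 TPM for Chd4-ECko, at 32851, 32861 and 50378 TPM for Brg1-ECko and at 48338, 24653 and 24768 TPM for the double mutant. The mutant libraries thus lay on both sides of the 3 controls, and their spread limits what could be detected.

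The members closest to a call in LSECs were those of the double mutant. Cox6b2 was at 14.8, 12.1 and 10.7 TPM in Brg1/Chd4-ECdko LSECs against 7.40, 7.65 and 4.89 TPM in controls (0.83, SE 0.21, adjusted p = 0.109). Cox4i2 was at 13.1, 19.5 and 14.002 TPM against 7.06, 6.31 and 9.52 TPM (0.93, SE 0.29, adjusted p = 0.201). For both isoforms all 3 double mutants lay above all 3 controls, a separation upward shown by 20.8% of all genes in this contrast, and a fit to the compared groups alone called them (adjusted p = 0.0365 for Cox6b2 and 0.0185 for Cox4i2) among 2.39% of all genes. Ndufv3, an accessory subunit of the NADH-oxidising module, was at 80.9, 97.2 and 84.5 TPM against 62.8, 68.1 and 71.2 TPM (0.37, SE 0.12, adjusted p = 0.231). In single mutants the groups overlapped for these 3 genes: Cox6b2 was at 5.58, 7.80 and 9.61 TPM for Chd4-ECko and 9.36, 7.75 and 6.76 TPM for Brg1-ECko, and Cox4i2 at 7.17, 9.73 and 15.4 TPM and 4.29, 10.6 and 6.45 TPM. Cox5a separated from the controls in Brg1-ECko, with 127, 129 and 119 TPM against 102, 107 and 103 TPM (0.26, adjusted p = 0.528), a separation upward that 10.9% of genes showed. In the double mutant, at 132, 118 and 147 TPM, it also lay above all controls.

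**Figure D5:**
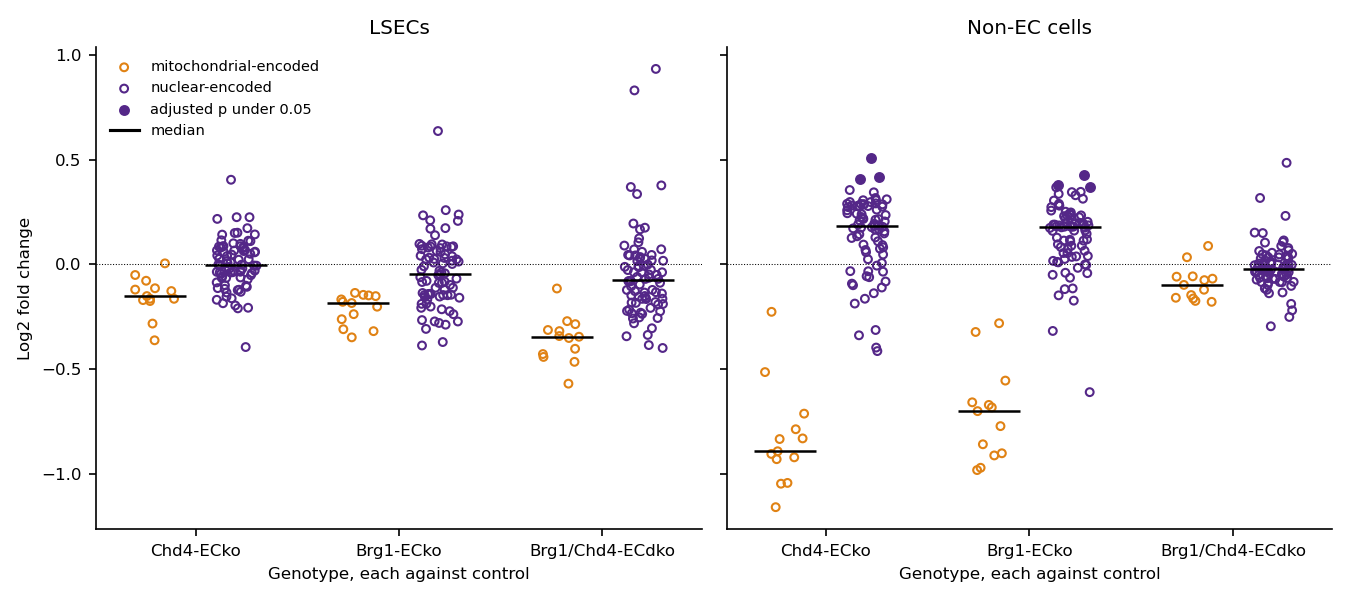
Log2 fold change of the mitochondrial-encoded (orange) and nuclear-encoded (purple) members in each mutant against control (n = 3 each), in LSECs (left) and non-EC cells (right), TPM as deposited; filled points have an adjusted p below 0.05 and lines are medians. No point is filled in LSECs, and in non-EC cells 3 nuclear-encoded members are filled in Chd4-ECko and 3 in Brg1-ECko, while mitochondrial-encoded medians are at -0.89 and -0.70 without a call.

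Non-EC cells, which are depleted of endothelium but may hold blood cells reached by VE-cadherin-Cre, gave 3 called members in Chd4-ECko and 3 in Brg1-ECko, all nuclear subunits of complex I and all higher. In these contrasts 9.48 and 11.7% of 12223 genes were called, 6.17 and 8.91% higher. Of the 80 nuclear-encoded members 9 lay wholly above the controls in Chd4-ECko and 26 in Brg1-ECko, against 15.8 and 21.9% of all genes. Ndufv3 was at 60.6, 59.9 and 65.1 TPM in controls, at 73.5, 85.1 and 89.8 TPM in Chd4-ECko (0.41, SE 0.10, adjusted p = 0.0317) and at 81.6, 84.7 and 76.6 TPM in Brg1-ECko (0.38, adjusted p = 0.0301). Every mutant library of Ndufv3 lay above every control, but on leaving out single libraries its adjusted p was 0.00316 to 0.0941 in Chd4-ECko, where the call held only without replicate 1 of the mutant, and 0.0531 to 0.0951 in Brg1-ECko, where it was lost each time. Ndufa13, an accessory subunit, was called in Brg1-ECko, at 163, 174 and 168 TPM against 134, 133 and 123 TPM (0.37, adjusted p = 0.0171, and 0.04 to 0.066 on leaving out single libraries, lost without replicate 3 of either group). Ndufa7 was called in Chd4-ECko, at 61.4, 88.7 and 95.6 TPM against 52.6, 62.9 and 53.7 TPM (0.51, SE 0.14, adjusted p = 0.049), where the groups overlapped and the call was lost without mitochondrial genes in the total (adjusted p = 0.0538) and on leaving out any library but replicate 1 of Chd4-ECko (0.00146 to 0.154). A fit to the compared groups alone called 0 members in Chd4-ECko, against 1.39% of all genes, and 11 in Brg1-ECko (9 higher and 2 lower), against 17.4% of all genes. In the fit of all groups, the 3 members called in Brg1-ECko became 1 without replicate 3 of control or of Brg1-ECko.

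Mitochondrial-encoded members had a median log2 fold change of -0.89 in Chd4-ECko non-EC cells (-1.16 to -0.23) and -0.70 in Brg1-ECko non-EC cells (-0.98 to -0.28), and none was called (smallest adjusted p 0.0788 and 0.174). At an unadjusted p below 0.05 there were 8 for Chd4-ECko and 1 for Brg1-ECko, and of the nuclear-encoded members 22 and 18, against 33.9 and 28% of all genes. mt-Cytb was at 6653, 4965 and 6272 TPM in controls. It was at 6261, 2276 and 1303 TPM for Chd4-ECko, at 3566, 1766 and 4265 TPM for Brg1-ECko and at 5294, 5311 and 5085 TPM for the double mutant. In Brg1-ECko, 11 of the 13 had all mutant libraries below all controls, a separation downward that 18% of all genes showed. Replicate 2 of Brg1-ECko was the lowest of its group, with a mitochondrial share of 3.04% against 5.24 and 5.51%, and its cytosolic ribosomal share was 17.05% against 14.2 and 14.4%. Across non-EC libraries of all genotypes, the largest ribosomal shares were 18.1, 17.2, 17.05 and 16.2%. Their mitochondrial shares were 2.33, 3.43, 3.04 and 6.17%, the last in a control. The libraries with the largest mitochondrial shares (7.69, 7.51 and 7.37%) had ribosomal shares of 13.6, 13.9 and 13.05%. The part of the ribosomal share was not tested. In Chd4-ECko all 13 overlapped the controls, with replicate 1 above the lowest control and replicates 2 and 3 below all controls for each gene. mt-Co1 showed the same arrangement, with 14162, 6659.7 and 4166 TPM beside control values of 14325, 11973 and 14657 TPM.

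Replicate 1 of Chd4-ECko non-EC cells decided these counts. Without it, 62 members were called in Chd4-ECko against control: all 13 mitochondrial-encoded members lower, with a median of -1.32, and among the nuclear-encoded members 45 higher and 4 lower, while 4592 of 12180 genes were called in all. Without any other library the count was 0 to 1. This library differed from replicates 2 and 3 in other ways: its hepatoblast markers summed to 35796 TPM against 27160 and 26554 TPM, its erythroid markers to 3261 TPM against 4705 and 12488 TPM, and its cytosolic ribosomal share was 13.05% against 17.2 and 18.1%. Their part in the result was not tested. The dissociation-response sum was 52.4 to 64.2 TPM in control non-EC cells, 68.0 to 78.4 TPM for Chd4-ECko and 67.2 to 69.1 TPM for Brg1-ECko, above all controls in both, with 0 of 6 genes called, and 51.8 to 69.4 TPM for the double mutant. Its part was not tested either. Hepatoblast markers were also higher in the mutants than in controls (17389 to 19452 TPM in controls, 26072 to 37829 TPM for Brg1-ECko and 22436 to 29813 TPM for the double mutant), with 7 of 9 called higher for Chd4-ECko, 9 of 9 for Brg1-ECko and 1 of 9 for the double mutant.

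In Brg1/Chd4-ECdko non-EC cells limma called 0 members (0.581% of genes called) and 1 passed an unadjusted p of 0.05 (11.7% of genes), the mitochondrial-encoded median was -0.10 and the nuclear-encoded median -0.02. mt-Co1 was at 12179, 12276 and 13084 TPM, inside the control range of 11973 to 14657 TPM. Ndufv3 was at 76.8, 85.7 and 70.2 TPM against 59.9 to 65.1 TPM in controls, so that all 3 libraries lay above the controls, as in the single mutants, without a call. The double mutant was also set against Chd4-ECko, from which it differs by the second floxed Brg1 allele. As VE-cadherin-Cre acts in endothelium and some blood cells, this contrast does not show what BRG1 loss does within other cells. Again 0 members were called, as were 0% of all genes, although 2 mitochondrial-encoded members and 22 nuclear-encoded members, 19 of them lower, passed an unadjusted p of 0.05 (21.8% of genes), and the mitochondrial-encoded median was 0.77. Without replicate 1 of Chd4-ECko 65 were called, with all 13 mitochondrial-encoded members higher (median 1.25) and the nuclear-encoded members 4 higher and 48 lower, among 3943 called genes. In the fit of all libraries the nuclear-encoded members nearest to a call were Ndufa7 (-0.54), Ndufs8 (-0.35) and Ndufb1 (-0.40), each with an adjusted p of 0.217. The comparisons with Chd4-ECko share its libraries and are not independent of each other.

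The difference of each mutant from control was compared between LSECs and non-EC cells as an interaction in the 24 libraries. Here limma called 0 members for Chd4-ECko (1.02% of genes called), 0 for Brg1-ECko (1.04%) and 0 for Brg1/Chd4-ECdko (0.0581%). At an unadjusted p below 0.05 there were 3, 8 and 1 members, all nuclear-encoded, against 19.1, 17.9 and 7.57% of all genes. The mitochondrial-encoded medians of the difference were 0.68, 0.52 and -0.26, with smallest adjusted p-values of 0.367, 0.475 and 0.803. With same-numbered libraries of both fractions as pairs, limma again called 0 members in each, and the smallest adjusted p-values of the mitochondrial-encoded members were 0.114, 0.122 and 0.654. The folds of the summed ratio within pairs, given above, were nevertheless higher in each of the 6 single-mutant pairs than in each control pair, while those of the double mutant lay on both sides of the controls. The member nearest to a call for Brg1-ECko and for Brg1/Chd4-ECdko was Cox6b2 (0.85, adjusted p = 0.172, and 1.13, adjusted p = 0.242). Without replicate 1 of Chd4-ECko non-EC cells the count for Chd4-ECko became 4, of which 2 were mitochondrial-encoded, while 1913 of 13758 genes were called in all.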

How the data were processed

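RNA of CD146+ LSECs and of the remaining non-EC cells was taken from E12.5 livers, with 3 embryos for each of 4 genotypes. Poly(A)-selected libraries were sequenced as paired reads by the authors, trimmed of polyG and aligned to GRCm39 (mm39 in the submitters' processing notes) in CLC Genomics Workbench. The authors deposited gene-level TPM, which divides by transcript length and scales each library to 1000000. TPM keeps no depth, so precision comes only from the spread between embryos, and poly(A) selection means that a level also depends on capture of the tail. The 8 deposited columns of group means were not used.

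Genes with at least 1 TPM in 3 libraries of the fit were tested on log2(TPM + 1) with limma 3.58.1 (R 4.3.3), with a variance trend. Genotype contrasts were fitted over the 12 libraries of a fraction and fraction and interaction contrasts over all 24, with Benjamini-Hochberg adjustment over all genes of the fit. The fit was tested on simulated data. Sums, ratios and figures were made in Python 3.11.15 with pandas 2.3.3, numpy 2.4.6 and matplotlib 3.10.9. Coordinates and overlaps are from GRCm39 and GENCODE, and promoters from RefSeq.

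Within a genotype, libraries of both fractions with 1 number deviated together (12 of 12 correlations above 0.1, mean 0.270), so the pairing was tried for the fraction contrast. The labels give these libraries the same numbers. The alternatives were another pseudocount (0.1), no filter or a mean of 5 TPM, quantile normalization, TPM without mitochondrial or globin genes, no variance trend, the replicate block, the compared groups alone, the fold rule and leaving out each library.

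Named genes were the 13 mitochondrial-encoded members, the largest and smallest called fold changes between fractions, the called or nearest members of each other contrast, the Sdh genes, isoform families and the most abundant nuclear member of each complex. Cox5b, Atp5a1, Atp5e, Ndufb10, Ndufs4, Ndufv1, Uqcrc1, Uqcrc2 and Uqcrh were named after their values were seen. Members, lists and tests were chosen with earlier results of these data known. Values of 1 member are not reported here.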

Additional observations from a re-analysis of the deposited data

How the results depend on the processing

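With TPM and 3 embryos a group, the depth of each library cannot be stated, and small changes in the mutants may lie within the spread between embryos. The fold of the mitochondrial to nuclear ratio between fractions (4.70) stayed between 3.80 and 5.17 under every alternative run, 2 of which were chosen after seeing the data (without mt-Cytb, 4.66, and the mean fold of same-numbered pairs as a replicate block, 5.17), and the difference in share (15.4 percentage points) between 14.4 and 16.1. The count of 39 members between control fractions was 15 under the rule that also asks for a log2 fold change over 1 in size, 46 with the replicate block, 48 with the compared groups alone (6 nuclear-encoded members higher and 29 lower, with 73.2% of all genes called) and 36 to 41 on leaving out a library. With only the compared groups fitted, 2 members were called in Brg1/Chd4-ECdko LSECs (2.39% of all genes), 0 in Chd4-ECko non-EC cells (1.39%) and 11 in Brg1-ECko non-EC cells (17.4%). The 3 members of Chd4-ECko non-EC cells became 5 with a mean of 5 TPM, 6 after quantile normalization, 0 with the fold rule and 0 to 62 on leaving out a library. The 3 of Brg1-ECko non-EC cells became 0 with the fold rule and 1 to 3 on leaving out a library. Brg1/Chd4-ECdko against Chd4-ECko in non-EC cells gave 0 to 65 on leaving out a library, and the Chd4-ECko interaction 0 to 4. Quantile normalization gave 1 member in the Chd4-ECko and 1 in the Brg1-ECko interaction. The 62, the 65 and the 4 came without replicate 1 of Chd4-ECko non-EC cells; the cause of these moves was not tested.

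Within a fraction, same-numbered libraries of different genotypes correlated above 0.1 in 13 of 18 pairs of LSECs and 10 of 18 pairs of non-EC cells (means 0.171 and 0.127), against 8 of 36 differently numbered pairs in each (means -0.085 and -0.067). Not every same-numbered pair passed 0.1, so the number was not taken as a pairing within a fraction. The replicate block left the counts at 0 in the 4 LSEC contrasts, at 3, 3, 0 and 0 in non-EC cells and at 0 in the 3 interactions, and in Chd4-ECko non-EC cells it gave Ndufa7 an adjusted p of 0.051.

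Among the named genes and contrasts refitted, signs turned only between control fractions and, apart from Atp5pb, only for members that were not called. After quantile normalization the log2 fold change was 0.20 for Cox4i1, 0.28 for Cox7a2, 0.25 for Cox7b, 0.013 for Atp5g2, 0.057 for Ndufa6, 0.12 for Uqcrb and 0.0015 for Atp5pb. Without mitochondrial genes it was 0.20 for Cox4i1, 0.11 for Cox7a1, 0.27 for Cox7a2, 0.20 for Cox7b, 0.088 for Atp5g2, 0.027 for Sdhc, 0.021 for Ndufa6 and 0.14 for Uqcrb. On leaving out a library it ranged from -0.16 to 0.0092 for Cox4i1, from -0.21 to 0.17 for Cox7a1, from -0.12 to 0.13 for Cox7a2, from -0.16 to 0.015 for Cox7b and from -0.064 to 0.12 for Cox6b1. Of 1165 refits of 75 named gene and contrast combinations, 1066 kept direction and side of the threshold, 54 lost a call, 20 gained one and 25 turned.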
